A study of Mus musculus with 24 samples.

Results

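Cardiac muscle genes were followed in distal lung tissue of mice by 19 probes for 9 of the 10 genes named by symbol (*Myh6*, *Myl4*, *Myl7*, *Tnnt2*, *Tnni3*, *Actc1*, *Pln*, *Sln*, *Ryr2* and *Jph2*), out of 45281 probes on the chip. No probe carried the symbol *Tnnt2* (cardiac troponin T), so its level was not measured here and only its promoter enters below. The tissue came from 24 female C57BL/6 mice aged 12.5 weeks, 6 per group, all given an oral treatment every day. Saline controls received subcutaneous saline and oral vehicle (Tween80, 2.5%), and the BLM group received subcutaneous bleomycin (50 IE per dose, 3 doses a week for 2 weeks) and the same vehicle. The EXT5 and EXT9 groups received bleomycin in the same way together with the serotonin receptor antagonist EXT5 or EXT9, each at 30 mg/kg, in place of plain vehicle. No group received a compound without bleomycin.

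Bleomycin causes DNA damage and is used to bring about lung fibrosis in mice. In rodents the wall of the pulmonary veins holds a sleeve of heart muscle that runs from the left atrium into the lung, so that transcripts of the cardiac contractile machinery are found in lung tissue. The motor *Myh6* is a myosin heavy chain of heart muscle and is not particular to the atria in mice. Atrial-type muscle is known for the light chains *Myl4* and *Myl7* and for sarcolipin (*Sln*). Sarcolipin inhibits the calcium pump of the sarcoplasmic reticulum as phospholamban (*Pln*) does. Calcium leaves that store through the ryanodine receptor *Ryr2* at contacts held together by junctophilin 2 (*Jph2*), and it acts on the thin filament of *Actc1* (cardiac actin) through the troponin subunits *Tnni3* and *Tnnt2*.

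Each array measured the total RNA of a homogenised piece of tissue, so that fewer cells of a type and less RNA per cell cannot be told apart, and the place of the muscle within the lung was not measured. The values fell into 2 distributions of 6 and 18 arrays, taken as 2 array runs: 3 saline and 3 BLM arrays stood in the first, and the other 3 of each together with all EXT5 and EXT9 arrays in the second. First and second are names given here, as no sample label gives a run or an order. The medians of the signal were 110.3 and 103.3. A probe was tested when its mean log2 signal lay in the upper 50% of all probes, above 6.71, which held for 10 of the 19 probes and for 8 genes. *Pln* and the other 8 probes lay under that limit and never left the range from 6.41 to 6.97. The genes were selected with earlier results from these arrays in view, so that every group difference below is a description of them.

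The promoters of *Myl7* and *Actc1* are shown because *Myl7* is one of the genes that varied together from mouse to mouse and *Actc1* is the gene with the largest called differences between groups. Both are the 250 bases before the start of transcription in RefSeq (build GRCm38.p6), read on the minus strand, with motif matches in capitals: in *Myl7* the muscle enhancer motif CATTCC and, behind it, a CArG box, the site of serum response factor, and in *Actc1* a CArG box.
Myl7, chr11:5898783-5899032: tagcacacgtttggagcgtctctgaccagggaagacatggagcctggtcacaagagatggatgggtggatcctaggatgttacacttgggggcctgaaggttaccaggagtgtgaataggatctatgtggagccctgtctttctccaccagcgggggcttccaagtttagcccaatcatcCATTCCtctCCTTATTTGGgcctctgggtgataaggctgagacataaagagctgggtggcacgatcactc
Actc1, chr2:114052876-114053125: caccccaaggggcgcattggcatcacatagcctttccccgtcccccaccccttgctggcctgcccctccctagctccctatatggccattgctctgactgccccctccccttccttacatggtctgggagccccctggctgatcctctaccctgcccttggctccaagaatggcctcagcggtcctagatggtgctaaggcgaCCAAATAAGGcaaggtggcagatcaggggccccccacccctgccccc

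The CArG box lay 61 to 52 bases before the start in *Myl7* and 47 to 38 bases before it in *Actc1*. It was present in 2 of the 9 members with a window in the table (*Sln* had none) and in 1.47% of all 32851 windows. CATTCC, the site of TEAD factors, searched on both strands as were all motifs but the last, was present in 3 members and in 12.6% of all windows. AGATAA of GATA factors was present in 2 members and in 9.99%, and AGGTGTGA of T-box factors in 1 and in 1.12%. The MEF2 box and TNAAGTG of *Nkx2-5* were present in no member, and in 0.508% and 10.1% of all windows. TATAAA, on the coding strand only, was present in 1 member and in 7.59%. TATAAA can lie inside a CArG or MEF2 box, but no match in a member overlapped another, and a match is only a stretch of letters. The *Myl7* gene spans 5896637 to 5898782 of chromosome 11, *Actc1* spans 114047282 to 114052875 of chromosome 2, and *Jph2* lies on the same chromosome at 163336242 to 163398049. The others lie on chromosomes 14 (*Myh6*), 11 (*Myl4*), 7 (*Tnni3*), 10 (*Pln*), 9 (*Sln*) and 13 (*Ryr2*).

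The genes *Myl4*, *Myl7*, *Myh6* and *Sln* differed far more between mice of the same group than between groups. The essential light chain *Myl4* ranged from 8.04 over a median of 9.19 to 11.85 on the log2 scale in saline controls, and from 8.49 over 9.26 to 12.07 in the BLM group. It ranged from 8.15 over 8.72 to 10.79 with EXT5 and from 8.33 over 8.47 to 10.26 with EXT9. The 4 groups overlapped almost completely, and the highest and the lowest array of all stood 16.4-fold apart on the linear scale. Within the saline controls alone the span was 14.1-fold, and within the BLM group 12.0-fold.

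*Myl7*, the regulatory light chain of atrial myosin, ranged from 7.32 over 7.52 to 10.19 in saline controls, from 6.81 over 7.65 to 9.57 with BLM, from 7.07 over 7.27 to 9.10 with EXT5 and from 6.67 over 7.11 to 8.20 with EXT9. *Myh6*, the alpha myosin heavy chain, ranged from 6.72 over 7.28 to 9.66, from 6.68 over 7.34 to 9.80, from 6.60 over 6.84 to 8.13 and from 6.60 over 6.75 to 7.75 in the same order of groups. *Sln* ranged from 6.59 over 7.04 to 9.26, from 6.45 over 7.09 to 9.64, from 6.57 over 6.66 to 8.55 and from 6.59 over 6.77 to 7.69. In each of these genes most arrays lay low and a few mice of every group lay well above them.

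The high arrays were the same ones from gene to gene. For *Myh6*, BLM replicate 1 (9.80) was followed by saline replicate 4 (9.66), BLM replicate 5 (8.72), EXT5 replicate 3 (8.13), saline replicate 3 (7.92) and EXT9 replicate 3 (7.75). For *Myl4*, the same 6 arrays read 12.07, 11.85, 10.88, 10.79, 10.15 and 10.26. BLM replicate 1 held the highest value of 6 of the 9 genes and saline replicate 4 that of 2, *Myl7* and *Actc1*. Of the 6 arrays, 4 were of the second run and 2 of the first. The color map of deviations shows these arrays at its left end.

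**Figure D1:**
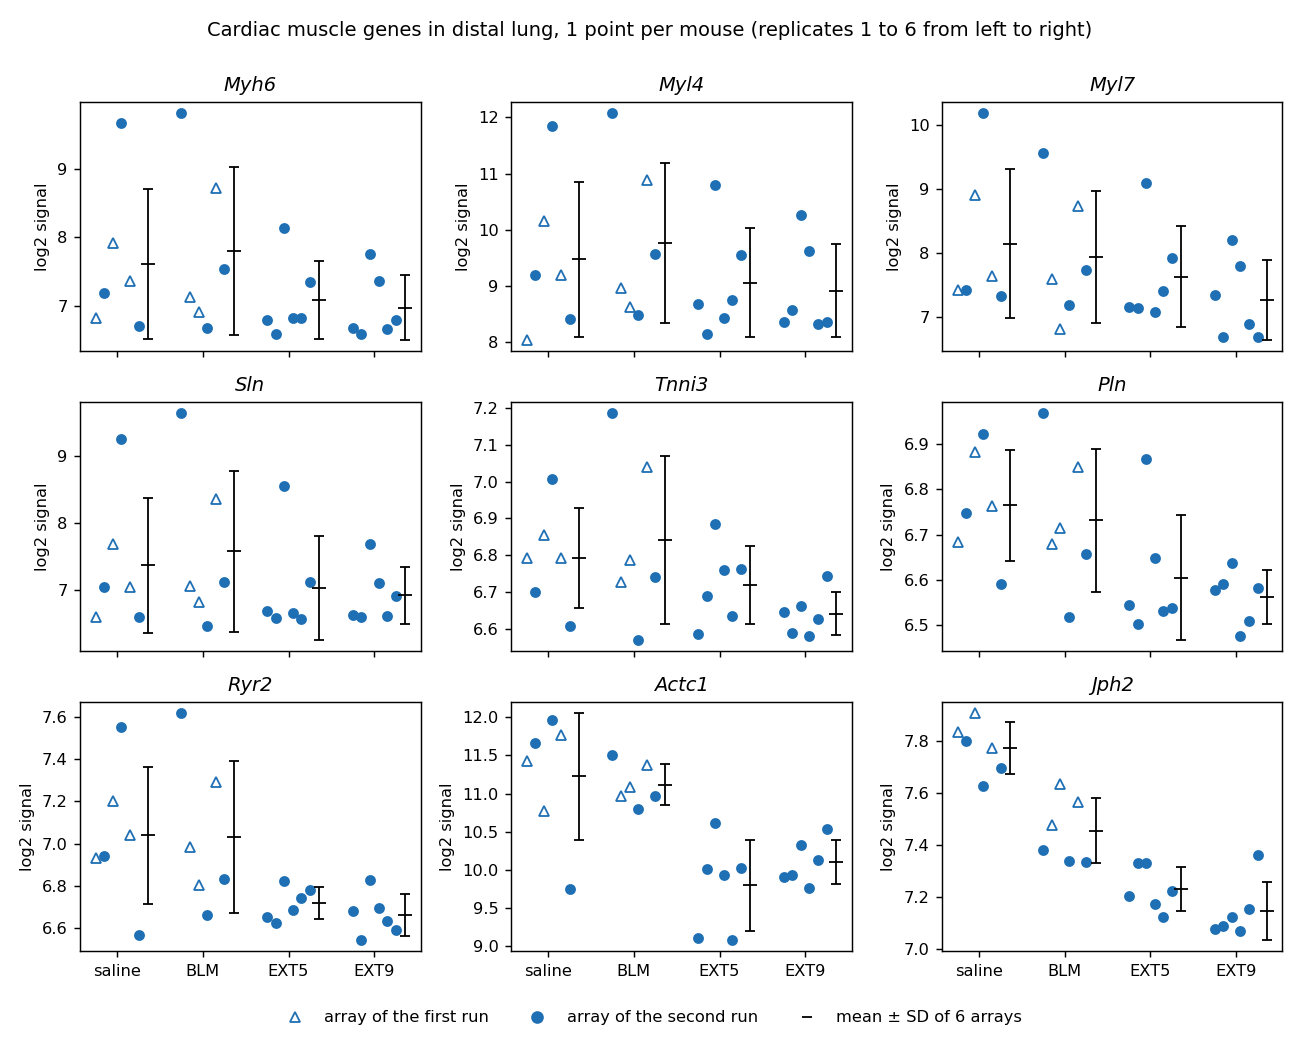
Log2 signal of the probe standing for each of the 9 cardiac muscle genes, 1 point per mouse, replicates 1 to 6 from left to right within saline, BLM, EXT5 and EXT9 (6 arrays each). Open triangles are arrays of the first run, filled circles arrays of the second, and black bars the mean ± SD of the group. In Myh6, Myl4, Myl7 and Sln a few mice of every group lie far above the rest, with Myl4 reaching 12.07, whereas Actc1 and Jph2 are lower in both EXT groups than in most saline and BLM arrays. The vertical axes differ between panels.

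Measured by the spread left after the group means alone were taken away, *Myl4* had a residual SD of 1.18 on the log2 scale, *Myl7* of 0.93, *Sln* of 0.90 and *Myh6* of 0.90. Any difference between the runs is part of this spread. The median over all tested probes was 0.13, and no more than 0.658% of them varied as much as any of these 4 genes. *Actc1* had 0.55, which 1.46% of the tested probes reached. *Ryr2* with 0.25, *Tnni3* with 0.15 and *Jph2* with 0.11 lay closer to the common spread, and so did *Pln* with 0.13, which was not tested.

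The genes of the first pattern went up and down together from mouse to mouse. Over 24 arrays, on deviations from the mean of each group and run, the 6 pairs among *Myh6*, *Myl4*, *Myl7* and *Sln* correlated with r between 0.947 and 0.983. These 4 correlated with *Tnni3*, *Pln* and *Ryr2* with r between 0.786 and 0.95. After the 2 highest arrays were left out, the values were 0.925 to 0.978 and 0.599 to 0.865 over 22 arrays. The arrays were not chosen independently of that measure, and the points share the normalization of the table.

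*Tnni3*, the inhibitory troponin subunit, moved within a narrow range: from 6.61 over 6.79 to 7.01 in saline controls, from 6.57 over 6.76 to 7.19 with BLM, from 6.58 over 6.72 to 6.89 with EXT5 and from 6.58 over 6.64 to 6.74 with EXT9. *Pln* ranged from 6.59 to 6.92, from 6.52 to 6.97, from 6.50 to 6.87 and from 6.48 to 6.64, with medians of 6.76, 6.70, 6.54 and 6.58. Both lay at the dim end of the scale, where a log2 difference understates a change. Their highest array was again BLM replicate 1.

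*Ryr2*, the release channel, had 5 probes, of which 1 passed the limit on the mean. That probe ranged from 6.57 over 6.99 to 7.55 in saline controls, from 6.66 over 6.91 to 7.62 with BLM, from 6.63 over 6.71 to 6.82 with EXT5 and from 6.54 over 6.66 to 6.83 with EXT9. The span within a group was 1.98-fold for saline and 1.94-fold for BLM, but 1.15-fold for EXT5 and 1.22-fold for EXT9. The other 4 probes correlated with it with r between -0.162 and 0.106. The second probes of *Myl4* and *Sln* likewise did not follow the first (r = 0.0067 and -0.303), whereas the second probe of *Myh6* did (r = 0.877), although it lay under the limit as well.

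*Actc1* and *Jph2* did not follow this pattern. *Actc1* correlated with the 4 genes with r between 0.44 and 0.574, and with r between 0.183 and 0.428 once the 2 highest arrays were left out. *Jph2* correlated with them with r between -0.082 and 0.0921, and between 0.0417 and 0.281 without those 2 arrays. Between *Actc1* and *Jph2* r was 0.325, and 0.494 without them.

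**Figure D2:**
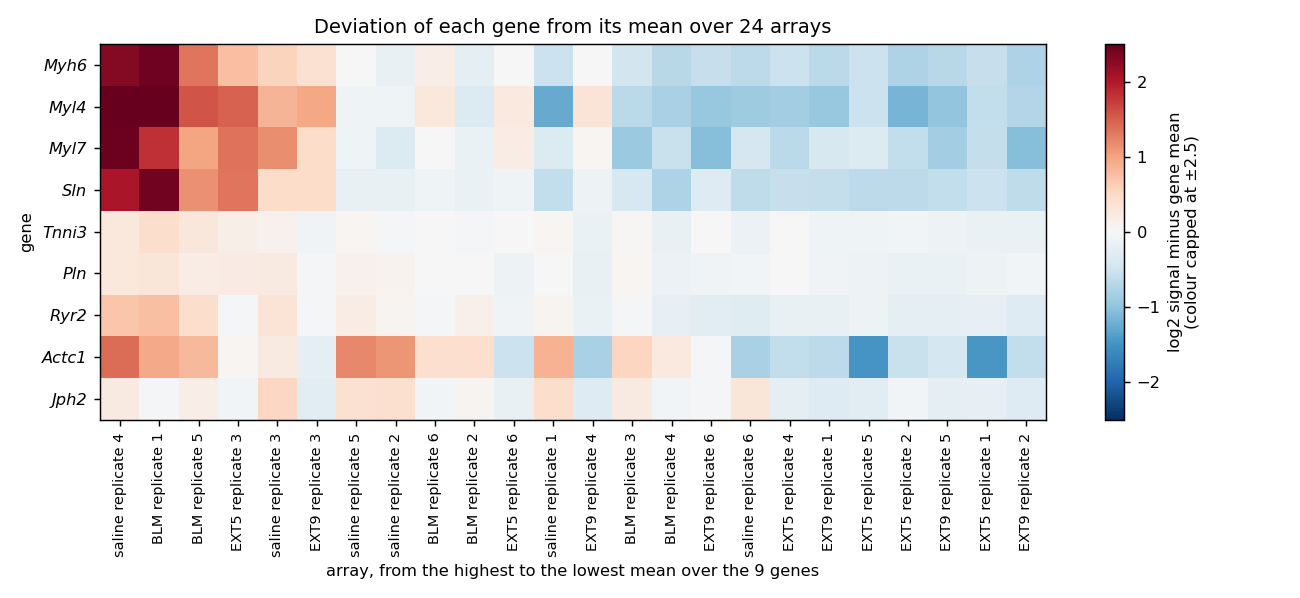
Log2 signal minus the mean of the gene over 24 arrays, for the 9 cardiac muscle genes (rows) and all arrays (columns), sorted from the highest to the lowest mean over the genes. Red is above and blue below the gene mean, with the color capped at 2.5. The 6 arrays at the left are high in Myh6, Myl4, Myl7 and Sln, while Actc1 is high in most saline and BLM arrays wherever they stand in that order.

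*Actc1* was lower with both compounds. Its brighter probe ranged from 9.75 over 11.55 to 11.96 in saline controls, from 10.80 over 11.03 to 11.51 with BLM, from 9.08 over 9.97 to 10.61 with EXT5 and from 9.76 over 10.03 to 10.54 with EXT9. All EXT5 and EXT9 arrays lay below all BLM arrays, and 1 saline control, replicate 6 with 9.75, lay among the EXT arrays. Saline and BLM did not differ beyond their spread, and neither did EXT5 and EXT9. The second probe ranged from 7.11 over 8.38 to 8.91, from 7.70 over 8.07 to 8.90, from 7.07 over 7.26 to 7.74 and from 7.25 over 7.43 to 7.99 in the same order, and it correlated with the first with r = 0.888.

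*Jph2* had the smallest residual SD of the 9 genes over all arrays, though not the smallest SD within the EXT5 and EXT9 groups. Its brightest probe ranged from 7.63 over 7.79 to 7.91 in saline controls, from 7.33 over 7.43 to 7.63 with BLM, from 7.12 over 7.21 to 7.33 with EXT5 and from 7.07 over 7.10 to 7.36 with EXT9. All EXT5 and EXT9 arrays lay below all saline controls, the EXT5 arrays also lay below the BLM arrays, and the saline and BLM ranges met at 7.63. Within each run the 3 saline arrays lay above the 3 BLM arrays, from 7.77 against at most 7.63 in the first and from 7.63 against at most 7.38 in the second. The second tested probe of *Jph2* did not follow (r = 0.224), with group means of 6.78, 6.84, 6.80 and 6.86, and was called in no comparison. The third probe, which was not tested, did not follow either (r = 0.108), with group means of 6.68, 6.66, 6.65 and 6.65. Both of these probes are annotated to another transcript record than the brightest one. The order of group means in *Jph2*, saline above BLM above EXT5 above EXT9, thus rests on 1 of its 3 probes, and the means of EXT5 and EXT9 did not differ beyond their spread.

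The first question of the design, bleomycin against saline, showed little in these genes. In the fit of group means over 24 arrays with limma, 1 of the 10 tested probes was called at an adjusted p under 0.05, against 0.137% of all 22640 tested probes in either direction and 0.00883% lower. It was the *Jph2* probe above, with a log2 difference of -0.32 ± 0.06 (SE, 6 against 6 mice), or 0.801-fold. The difference was -0.36 ± 0.08 in the second run alone and -0.28 ± 0.07 in the first, and it was called in neither. It also lost its call when any of 7 of the 12 arrays was left out (saline replicates 1, 2, 3 and 5 and BLM replicates 1, 4 and 6), while its difference stayed between -0.36 and -0.29 over all 12. With the run as a block it was still called, with 0.473% of all probes, and in the second run 0 of 10 were, with 0.0398%. *Myl4* differed by 0.29 ± 0.64, with a 95% interval from -1.02 to 1.61, and *Myl7* by -0.21 ± 0.50, from -1.25 to 0.82. Without BLM replicate 1 the *Myl4* difference was -0.17, and without saline replicate 4 it was 0.77. For *Myl7* these were -0.54 and 0.20. The median over the 9 genes, *Pln* included, was -0.01, beside -0.00 over all tested probes.

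EXT5 was given together with bleomycin, and its first comparison was with saline controls. Called were 3 of 10 probes, all lower, against 14.6% of all tested probes in either direction and 11.1% lower: *Jph2* by -0.54 ± 0.06 and both probes of *Actc1*, by -1.43 ± 0.30 (0.371-fold) and -1.02 ± 0.23. *Jph2* was the 1 tested probe with no overlap between the groups, as were 2.22% of all tested probes in that direction. With the run as a block the same 3 probes were called, with 10.9% of all and -0.67 for the second *Actc1* probe, and in the second run *Jph2* alone, with 3.98%, where the brighter *Actc1* probe differed by -1.33. *Myl4* differed by -0.41 ± 0.64, *Myl7* by -0.52 ± 0.50 and *Myh6* by -0.52 ± 0.48, none of them called. Without saline replicate 4 these 3 differences were 0.06, -0.11 and -0.11. The median over the 9 genes was -0.41, beside -0.05 over all tested probes, and it was -0.11 without saline replicate 4 and -0.65 without EXT5 replicate 3.

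For EXT9 with bleomycin against saline, 4 of 10 probes were called, all lower, against 23.1% of all tested probes and 17.6% lower. They were *Jph2* with -0.63 ± 0.06, the *Actc1* probes with -1.13 ± 0.30 and -0.82 ± 0.23, and *Ryr2* with -0.38 ± 0.14. With the run as a block, *Ryr2* and the second *Actc1* probe were no longer called, at -0.37 and -0.47 (16.1% of all probes were), and in the second run only *Jph2* was (6.36%), with the brighter *Actc1* probe at -1.03. *Ryr2* also lost its call when any of 10 of the 12 arrays was left out (all but saline replicate 6 and EXT9 replicate 3), while its difference stayed between -0.47 and -0.27. *Jph2* again had no overlap, as had 3.51% of all tested probes. *Myl7* differed by -0.88 ± 0.50 and was not called, with -0.47 without saline replicate 4. The median over the 9 genes was -0.55, and -0.23 without that array, beside -0.06 over all tested probes.

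Against BLM, EXT5 gave 3 called probes of 10, with 7.28% of all tested probes called and 6.28% lower. These were *Actc1* with -1.32 ± 0.30 and -0.83 ± 0.23, and *Jph2* with -0.23 ± 0.06. The brighter *Actc1* probe and *Jph2* had no overlap, as had 3.37% of all tested probes in that direction. The second *Sln* probe, which was not tested and so is not covered by that share, had none either, at a difference of -0.12 ± 0.04. It was dim, did not follow the first *Sln* probe (r = -0.303) and differed by -0.07 with the run as a block. With the run as a block only the brighter *Actc1* probe was called, with 4.29% of all. Within the second run, where BLM had 3 arrays, 0 of 10 were, with 1.26% of all, at -1.30 ± 0.40 for *Actc1* and -0.12 ± 0.07 for *Jph2*. *Jph2* also lost its call with joint quantile normalization, at -0.16, and when any of 7 of the 12 arrays was left out (BLM replicates 2, 3 and 5 and EXT5 replicates 1, 4, 5 and 6), with -0.25 to -0.19 over all 12. With the block it was -0.14, and the second *Actc1* probe -0.48. *Myl4* differed by -0.71 ± 0.64, or by -0.25 without BLM replicate 1. The median over the 9 genes was -0.31, with -0.20 without that array and -0.60 without EXT5 replicate 3, beside -0.05 over all tested probes.

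EXT9 against BLM gave 2 called probes of 10, with 10.1% of all tested probes called and 8.35% lower: *Actc1* with -1.02 ± 0.30 and *Jph2* with -0.31 ± 0.06. The second *Actc1* probe was not called, at -0.63 ± 0.23, or -0.27 with the run as a block. The brighter *Actc1* probe had no overlap, as had 4.42% of all tested probes. It lost its call with the run as a block (-0.96), with joint quantile normalization (-0.95) and when any of 8 of the 12 arrays was left out (BLM and EXT9 replicates 1, 2 and 5, BLM replicate 3 and EXT9 replicate 4), within -1.11 to -0.94 over all 12. Without BLM replicate 4 the count was 4, with *Ryr2* at -0.44 among them. With that block *Jph2* alone was called, with 5.11% of all probes, and in the second run 0 of 10, with 2.34%. *Myl4* differed by -0.85 ± 0.64, *Myh6* by -0.82 ± 0.48 and *Myl7* by -0.67 ± 0.50, and without BLM replicate 1 these were -0.39, -0.42 and -0.35. The median over the 9 genes was -0.66, and -0.33 without that array, beside -0.06 over all tested probes. The comparisons with saline and with BLM share the EXT arrays, so their values stand side by side and were not set against each other.

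EXT9 against EXT5 gave 0 called probes of 10 in limma, with 0.146% of all tested probes called, and 0 at an unadjusted p under 0.05. It was 0 as well with the run as a block (0.446% of all probes) and in the second run (0.137%). *Actc1* differed by 0.30 ± 0.30, with an interval from -0.31 to 0.92, *Jph2* by -0.09 ± 0.06, from -0.21 to 0.04, and *Myl4* by -0.14 ± 0.64, from -1.46 to 1.17. Without EXT5 replicate 3 the *Myl4* difference was 0.20 and without EXT9 replicate 3 it was -0.41. The *Actc1* difference ran from 0.16 without EXT5 replicate 5 to 0.47 without EXT5 replicate 3. All EXT arrays were of the second run, so this comparison does not cross the runs.

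**Figure D3:**
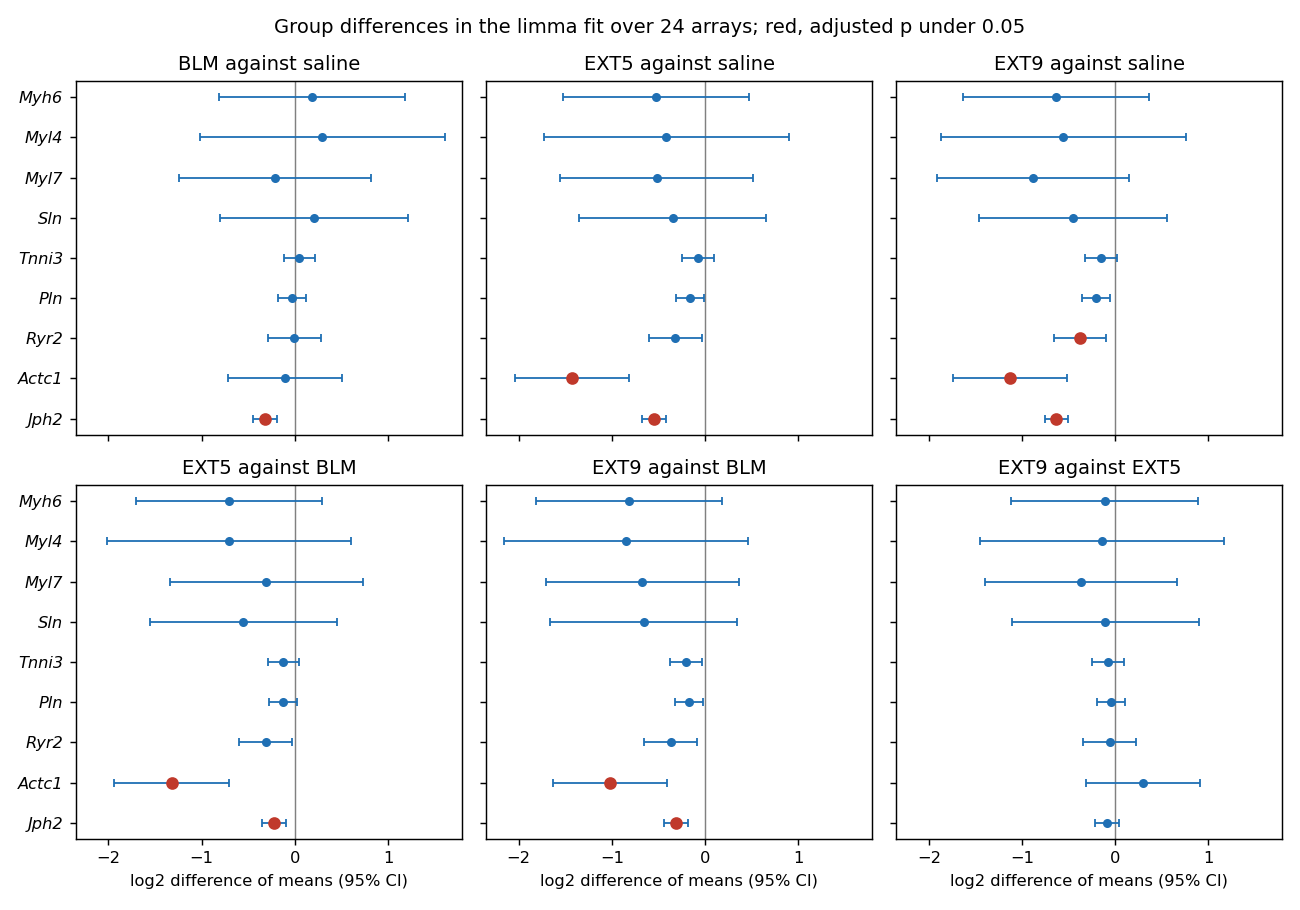
Log2 difference of group means with its 95% confidence interval for the 9 cardiac muscle genes in 6 comparisons, from the limma fit over 24 arrays (6 mice a group). Red points passed an adjusted p under 0.05 over all 22640 tested probes, and Pln was not tested. The intervals of Myh6, Myl4, Myl7 and Sln are wide and include 0 in every comparison, whereas Jph2 is lower in each comparison with saline and with BLM and Actc1 in the 4 that involve an EXT group and saline or BLM.

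By the highest r with the mean deviation over the 9 genes, the 20 nearest tested genes were led by *Csrp3* (a Z-disc protein, r = 0.992), *Mybphl* (a myosin binding protein, r = 0.991), *Mb* (myoglobin, r = 0.989) and *Tnnc1* (cardiac troponin C, r = 0.974). They continued with *Myoz2*, *Myl1*, *Ckmt2*, *Actn2*, *Atp2a2* (the calcium pump that *Sln* and *Pln* inhibit, r = 0.959), *Eef1a2*, *Hamp*, *Hrc*, *Cox7a1*, *Myom1*, *Myl3*, *Trim72*, *Pde4dip*, *Serpina9*, *Myom2* and *Srl* (r = 0.902). *Mb* spanned 11.3-fold, from 6.53 over a median of 6.95 to 10.03 on BLM replicate 1, with saline replicate 4 (9.51) and EXT5 replicate 3 (8.83) next. *Csrp3* read 9.02 on both BLM replicate 1 and saline replicate 4, against a median of 6.82.

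Lists of cardiac genes showed how far the pattern reached. Of 22 sarcomere and Z-disc genes with a probe, 7 correlated with the member mean with r over 0.9, and 12 had their highest value on BLM replicate 1 or saline replicate 4. The mean of that list correlated with the members with r = 0.992. Its 6 brightest genes were *Tpm1*, *Cryab*, *Tcap*, *Ankrd1*, *Myom1* and *Actn2*, of which *Tcap* (r = 0.884), *Myom1* (r = 0.930) and *Actn2* (r = 0.961) followed closely. *Tpm1* (r = 0.571), *Ankrd1* (r = 0.384) and *Cryab* (r = -0.249), a chaperone present in many cells, did so less or not at all. Of the 17 tested, 0 were called for BLM against saline, 2 higher and 2 lower for EXT5 against saline, 0 and 2 for EXT9 against saline, 0 for EXT5 and 1 lower for EXT9 against BLM, and 0 between the compounds. Over all tested probes, 14.6% and 23.1% were called for EXT5 and EXT9 against saline, and 7.28% and 10.1% against BLM. *Tcap*, which caps titin at the Z-disc, was lower with EXT9 by -1.61 against saline (limma adjusted p = 0.0016) and by -1.27 against BLM (adjusted p = 0.021, and 0.056 with the run as a block), and lower with EXT5 by -1.06 against saline (adjusted p = 0.031, and 0.081 with the block). *Fhl2* was lower with both against saline, and *Cryab* and *Ankrd1* were higher with EXT5 against saline, of which only *Cryab* was still called with the block.

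The mean of 15 genes of muscle energy metabolism followed the members with r = 0.965, and 3 of them passed r of 0.9 (*Mb*, *Ckmt2* and *Cox7a1*). Of 14 tested, 1 was lower with EXT5 against saline (*Acadm*), 4 were lower with EXT9 against saline (*Acadm*, *Pfkm*, *Cox8b* and *Slc2a4*) and 1 with EXT9 against BLM (*Pfkm*). Lower over all tested probes were 11.1%, 17.6% and 8.35% in these comparisons. Apart from *Acadm* (-0.32 with EXT5 and -0.37 with EXT9 against saline) and *Pfkm* (-0.26 with EXT9 against saline), none of these calls remained with the run as a block. None was called in the other 3 comparisons. The brightest of the list were *Acadm*, *Cox6a2*, *Pfkm*, *Cox8b* and *Fabp3*, some of which other cells use as well, and their r with the members ran from 0.334 to 0.745.

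Of 18 calcium handling and excitation genes, 3 passed r of 0.9: *Atp2a2*, *Hrc* and *Srl*, all proteins of the sarcoplasmic reticulum. The bright *Gja1*, *Gja5*, *Slc8a1*, *Popdc2* and *Camk2d* did not follow (r between -0.464 and 0.214). Of 11 tested, 2 were higher (*Gja1* and *Camk2d*) and 2 lower (*Gja5* and *Rrad*) with EXT5 against saline, and 1 was higher (*Gja1*) and 3 lower (*Gja5*, *Slc8a1* and *Rrad*) with EXT9 against saline, where 14.6% and 23.1% of all tested probes were called in either direction. Against BLM, *Gja5*, a gap junction gene of atrial muscle and of arterial endothelium, was lower with EXT5 and with EXT9, and *Slc8a1* with EXT9. Lower against BLM were 6.28% and 8.35% of all tested probes. For BLM against saline and between the compounds, 0 genes were called. With the run as a block, *Gja1* in both comparisons and *Gja5* and *Rrad* with EXT9 against saline were still called. *Atp2a2* was called in no comparison, at -0.49 for EXT5 and -0.53 for EXT9 against saline.

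Of 13 transcription factors and hormones of the heart, 7 lay under the limit on the mean, among them *Nkx2-5*, *Gata4*, *Tbx20*, *Hand2* and *Bmp10*, with no value over 6.96. *Nppa*, which codes for the atrial natriuretic peptide, read 9.77 on BLM replicate 1 and 7.89 on EXT5 replicate 3, and 6.82 or less on the other 22 arrays, saline replicate 4 included. *Myocd* (myocardin), a cofactor of serum response factor in smooth and cardiac muscle, was lower with EXT5 and EXT9 in comparison to saline (-0.40 and -0.37) and to BLM (-0.42 and -0.39), and these 4 calls remained with the run as a block. Of the other 3 calls over the 6 tested genes, *Mef2c* was higher with EXT9 against saline and *Smyd1* lower with EXT9 in both comparisons, and none of them remained. Among all tested probes, 14.6% and 23.1% were called for EXT5 and EXT9 against saline, and 7.28% and 10.1% against BLM.

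Chamber markers were set beside the label of atrial-type muscle. The mean of the 6 ventricular markers correlated with the member mean with r = 0.877 and that of the 8 atrial markers with r = 0.428. The list means thus did not set atrial muscle apart. Only 3 of the 6 and 4 of the 8 genes passed the limit on the mean, so these means cannot decide the chamber. Of the ventricular list, *Myl2*, *Myh7* and *Irx4* lay under the limit, with *Myl2* between 6.42 and 6.82 and *Myh7* between 6.55 and 6.84 over all arrays, while *Myl3* followed the members (r = 0.929) from 6.50 up to 8.40 on saline replicate 4. Of the atrial list, *Bmp10*, *Kcna5*, *Kcnj3* and *Kcnj5* lay under the limit, and *Gja5*, *Nr2f2* and *Tbx5* did not follow (r between -0.464 and -0.192). *Nppa*, the remaining one, had r = 0.658, with its high values on BLM replicate 1 and EXT5 replicate 3. Of the 4 tested atrial markers only *Gja5* was called, lower with both compounds against saline and BLM. Of the 3 tested ventricular markers only *Hey2* was, lower with EXT5 against saline and with EXT9 against saline and BLM. The EXT9 calls of *Hey2* remained with the run as a block. Lower over all tested probes were 11.1% and 17.6% for EXT5 and EXT9 against saline, and 6.28% and 8.35% against BLM. Muscle of the veins and tissue of the heart itself cannot be told apart by these lists.

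Lists of other cells varied with the members to different degrees. The skeletal muscle list correlated with the member mean with r = 0.486, and *Acta1* and *Myh4* were under the limit, with no value over 6.79. The club cell list (6 of 6 genes with a probe passed the limit) had r = 0.875 and the adipocyte list (3 of 9 passed it) r = 0.819. Of their genes, *Scgb3a1* (r = 0.830), *Reg3g* (r = 0.896) and *Adipoq* (r = 0.896) had the highest r. The lists were averaged without scaling and *Scgb3a1* alone spanned 39.1-fold, so the r of a list need not hold for its other genes. *Scgb3a1*, an airway secretory gene, reached 11.94 on saline replicate 4 and 11.52 on BLM replicate 1 against a median of 7.02, *Reg3g* reached 9.94 on BLM replicate 1 against 6.58, and *Adipoq* of fat reached 9.70 on saline replicate 4, 9.50 on EXT5 replicate 3 and 9.06 on BLM replicate 1 against 6.68. The alveolar lists ran weakly the other way, with r of -0.334 for type 2 and -0.322 for type 1 cells. The part of any of these cells in the levels of the members was not tested.

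*Actc1* went with smooth muscle. Its deviations correlated with the mean of 10 smooth muscle genes with r = 0.942, with 10 genes of ciliated cells with r = 0.879 and with alveolar type 1 genes with r = -0.769, and the nearest single genes were *Actg2* (r = 0.974), *Acta2* (r = 0.947) and *Tpm2* (r = 0.943). The 7 genes that varied together had r between 0.376 (*Myl7*) and 0.583 (*Pln*) with the smooth muscle list, and the mean over all 9 genes had r = 0.548 with it and 0.607 with the ciliated list. The list means of smooth muscle ranged from 9.01 over 9.77 to 9.83 in saline controls, from 9.45 over 9.52 to 9.65 with BLM, from 8.76 over 8.94 to 9.25 with EXT5 and from 8.96 over 9.10 to 9.16 with EXT9, so that this list was lower in the same groups as *Actc1*. The ciliated list was lower there too, with medians of 9.41, 9.19, 8.63 and 8.67. Muscle actins are nearly identical in protein sequence, and whether the *Actc1* probes also bind *Acta2* or *Actg2* was not tested. The part of muscle, airway and alveoli in a piece of lung was likewise not tested.

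*Jph2* followed neither list closely. Its r was 0.259 with smooth muscle and 0.0328 with the sarcomere list, and the nearest genes were *Bcl7c* (r = 0.817), *Josd2* (r = 0.811) and *Akt1s1* (r = 0.801), none of which is a muscle gene.

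**Figure D4:**
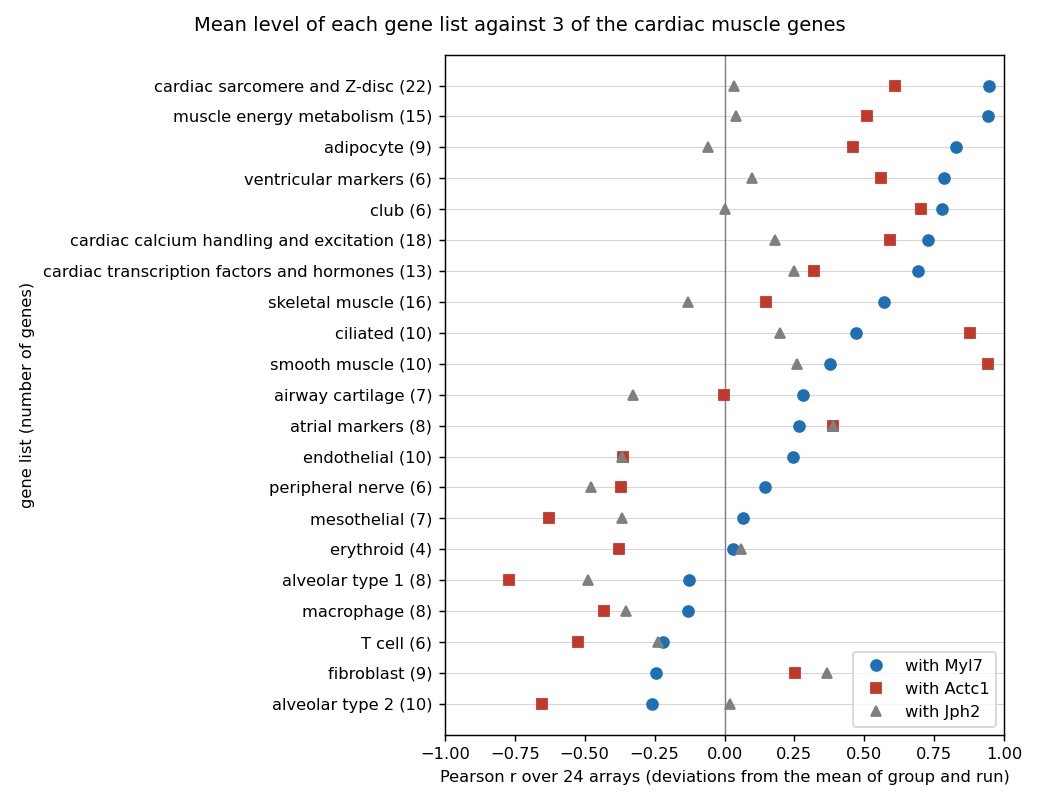
Pearson r over 24 arrays between the mean level of each of 21 gene lists and Myl7 (circles), Actc1 (squares) or Jph2 (triangles), all as deviations from the mean of group and run, with the number of genes in brackets. Myl7 goes with the sarcomere list (r = 0.946) and muscle energy metabolism (r = 0.943), Actc1 with smooth muscle (r = 0.942) and ciliated cells (r = 0.879), and Jph2 lies between r = -0.488 and 0.389 for all lists.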

How the data were processed

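RNA from distal lung was hybridised to Illumina MouseWG-6 v2 chips. The authors deposited a table of intensity values, quantile normalized on the linear scale, and these were turned to log2 with nothing added. The tools behind the normalization are not given in the sources used here. The 2 runs were inferred from the distributions, and their median difference was 0.10 on the log2 scale. The series description appears to imply another number of re-analysed samples than the saline and BLM arrays placed in the second run. Results by run rest on this inference. In 602 rows the first run appeared to stand at other probes (r between the runs was 0, and 0.995 elsewhere), and no member is among them. The table of non-normalized signals, also deposited, has 48 columns with names that match no sample. Its signals were not used, and only its order of probes was, to find the 602 rows. Symbols came from the platform annotation.

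Group means were fitted over 24 arrays with limma 3.58.1 in R 4.3.3, with Benjamini-Hochberg adjustment over 22640 probes in each comparison. The fit was tested on simulated data. Named were all member probes, the brightest standing for its gene, the 20 genes most like them, and the up to 6 brightest and, where 5 or fewer, the called genes of each list. Members and lists were chosen with earlier results of these data known. Alternatives were joint quantile normalization, median centring, a pseudocount of 16, no filter, other variance models, the run or replicate number as a block, single runs, 2 groups alone and leaving out each array.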

Additional observations from a re-analysis of the deposited data

Results flagged for a closer look

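In 40 groups of 6 mice, the highest or lowest array was set against the others by its gap to the nearest one as a share of the range. These were the 4 groups for the probe standing for each of the 9 genes, *Pln* included, and for the mean deviation over these genes. Chance alone passes the limit used, the critical value of Dixon for 6 values, in about 1 group in 20. For *Sln*, EXT5 replicate 3 stood at 8.55 with the next array at 7.12, a share of 0.724. This mouse was also the highest of its group in *Myh6*, *Myl4* and *Myl7*. For *Jph2*, EXT9 replicate 6 stood at 7.36 with the next at 7.16, a share of 0.711. The reasons were not tested.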

How the results depend on the processing

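Of 1143 differences of single genes under the alternatives, 0 called ones changed sign, 55 lost and 3 gained a call, and 24 uncalled ones changed sign. The medians over the 9 genes, 115 values, moved by no more than the SD between mice (0.511). That SD is wider than some of the medians themselves, such as -0.41 for EXT5 against saline, so this limit cannot show that they were steady. The count for BLM against saline was 1 and became 0 in the second run, in the first run and with the 2 groups alone. In the second run alone the counts were 1 for EXT5 against saline (3 with all arrays), 1 for EXT9 against saline (4), and 0 for EXT5 and EXT9 against BLM (3 and 2). The block for run gave 2 for EXT9 against saline, 1 for EXT5 against BLM and 1 for EXT9 against BLM, which was also 1 with joint quantile normalization. These cuts leave fewer arrays or compare mainly within a run, and the cause was not tested further. Leaving out 1 array gave 0 to 1, 3 to 4, 3 to 4, 1 to 3, 1 to 4 and 0 to 0 called probes in the order of the report, and medians from -0.18 to 0.10, -0.65 to -0.11, -0.65 to -0.23, -0.60 to -0.20, -0.82 to -0.33 and -0.11 to 0.01. Rows with displaced values, left out as an alternative chosen after seeing the data, changed no count by over 1.5 times.

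The groups share replicate numbers. Over 36 pairs of arrays with the same number the deviations correlated between -0.64 and 0.75, with a median of -0.04, so the numbers do not pair the mice. With the replicate block the count for EXT9 against BLM was 1 in place of 2, and the other 5 counts kept within 1.5 times of theirs. Dim probes near the lower end of the scale limit what can be seen of *Pln*, *Tnni3* and most *Ryr2* probes.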
